A study of Mus musculus with 4 samples.

Results

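Smad1 occupancy was examined around 10 regulators of pluripotency, Pou5f1, Nanog, Sox2, Klf2, Klf4, Esrrb, Zfp42, Prdm14, Lin28a and Utf1. Every deposited Smad1 peak that lay within 20 kb of the annotated body of one of these genes (mouse build mm10, GENCODE M21) was taken, whatever its strength and whichever list held it. The rule found 51 peaks among the 76539 of the 5 deposited lists, and peaks that overlapped across lists formed 29 regions. The peaks came from embryoid bodies (EBs), floating clusters of differentiating ES cells, of a GFP-Bry ES cell line in which GFP reports Brachyury, of strain C57BL/6 by the labels. The EBs were dissociated, reaggregated and kept for 24 h in DMSO, the vehicle, or in 10 µM IWR-1, a small-molecule inhibitor of Wnt signalling, and both groups were collected on day 4. Chromatin was immunoprecipitated with an antibody to Smad1, and each treatment had 1 ChIP library and 1 input library, so n = 1 throughout, a difference between treatments has no replicate check, and no p-value is given.

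The authors called peaks with MACS and with QESEQ. Near the 10 genes there were 12 of the 15927 DMSO MACS peaks and 16 of the 26070 DMSO QESEQ peaks. The authors also deposited 10466 sites common to both DMSO lists, and 7 of these lay near the 10 genes. The IWR-1 QESEQ list gave 15 of its 16261 peaks and a second MACS list gave 1 of its 7815. What the labels say and what the lists hold do not match. The common list and the DMSO MACS list are filed under the DMSO input and the DMSO QESEQ list under the IWR-1 input. Their deposited names give DMSO. Coordinates show that these lists belong together, since all 10466 common sites are intervals of that QESEQ list and overlap a peak of that MACS list. Coordinates do not show the treatment. The second MACS list is filed under the DMSO Smad1 ChIP, although its deposited name gives IWR-1. Like the treatment of the DMSO lists, its link to IWR-1 rests on the name, and also on elimination, not on coordinates. Every count from it below rests on that assignment. Read counts are not part of the lists, and the depth at any one peak is therefore unknown. A MACS score ranks a peak within its own list, and scores were not compared between lists.

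Pou5f1 (Oct4), Sox2 and Nanog are the core transcription factors of pluripotent cells, and Klf2, Klf4, Esrrb, Zfp42 and Prdm14 belong to the network of naive ES cells around them. Lin28a encodes an RNA-binding protein that blocks let-7 maturation, and Utf1 encodes a chromatin-associated protein of undifferentiated cells. In ES cells, BMP signals act through Smad1 alongside LIF to hold back differentiation, and Smad1 is known there to share enhancers with the core factors, while Wnt signals stabilise β-catenin and relieve repression of the naive network by Tcf7l1. Most of these genes are turned down as EBs form mesoderm. The lists hold no expression values, so neither the level of these genes on day 4 nor the cell types in the EBs could be checked here.

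The sequences below come from the NCBI GRCm38 assembly, the sequence behind mm10, on the plus strand, and are those of the reference genome rather than of these cells. The first set holds the central 100 bp of the common site of each gene that had one, because the results turn on these sites. Capitals mark runs of 7 or more A or T and matches to the short sequences searched, where they lie wholly in the printed stretch. The first is a run of T at the Pou5f1 site, the next a run of A beside the SOX sequence AACAATG at the Nanog site, then a short run of A at the Esrrb site, AACAAAG at the Zfp42 site, which on the minus strand reads as the TCF/LEF sequence CTTTGTT, and TGTCTG at the Utf1 site, which on the minus strand reads as the Smad sequence CAGACA. The upstream Sox2 site held none of these in its centre. The first bases printed for Esrrb are the end of a run of 27 A and are left in lower case.
Pou5f1, chr17:35500485-35500584: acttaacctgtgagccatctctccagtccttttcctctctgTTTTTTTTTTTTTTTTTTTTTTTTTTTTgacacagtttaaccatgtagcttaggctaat
Nanog, chr6:122730875-122730974: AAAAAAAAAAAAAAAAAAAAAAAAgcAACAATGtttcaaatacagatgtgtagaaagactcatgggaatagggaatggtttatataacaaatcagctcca
Sox2, upstream site, chr3:34631414-34631513: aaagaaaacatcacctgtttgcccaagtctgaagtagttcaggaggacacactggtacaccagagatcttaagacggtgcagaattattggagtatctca
Esrrb, chr12:86437528-86437627: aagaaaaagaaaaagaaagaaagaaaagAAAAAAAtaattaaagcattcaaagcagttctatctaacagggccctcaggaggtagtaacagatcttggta
Zfp42, chr8:43283335-43283434: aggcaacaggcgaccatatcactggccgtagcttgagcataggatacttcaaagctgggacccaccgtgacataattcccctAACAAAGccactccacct
Utf1, chr7:139947347-139947446: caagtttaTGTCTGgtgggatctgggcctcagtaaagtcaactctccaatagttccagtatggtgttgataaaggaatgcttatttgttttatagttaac

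The downstream Sox2 site is shown over the 217 bp covered by all 5 lists. It was chosen for printing after its calls were seen, because no other region near the 10 genes was called in every list. No searched sequence lay in this stretch, so it has no capitals.
Sox2, stretch in all lists, chr3:34653289-34653505: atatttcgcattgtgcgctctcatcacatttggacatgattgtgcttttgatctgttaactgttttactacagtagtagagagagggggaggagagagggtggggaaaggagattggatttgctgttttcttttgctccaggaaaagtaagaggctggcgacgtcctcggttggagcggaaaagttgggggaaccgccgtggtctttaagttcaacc

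Genes without a common site are shown by the central 100 bp of the peak nearest their start, which is a DMSO MACS peak for Klf2, Prdm14 and Lin28a and an IWR-1 QESEQ peak for Klf4. The last line is 49 bp of an IWR-1 QESEQ peak in Esrrb. It was chosen after the search, because it holds the sequence TCAAGGTCA, a type that Esrrb itself can bind. Repeats took up 19.4% of the whole peak, and whether the printed 49 bp lie in a repeat was not tested. Capitals mark CAGACA on the minus strand for Klf4 and Lin28a and TCAAGGTCA for Esrrb.
Klf2, chr8:72299587-72299686: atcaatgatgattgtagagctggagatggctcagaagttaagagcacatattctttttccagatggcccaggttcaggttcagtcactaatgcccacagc
Klf4, chr4:55548128-55548227: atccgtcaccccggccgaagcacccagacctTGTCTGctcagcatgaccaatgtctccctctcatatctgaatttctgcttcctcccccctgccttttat
Prdm14, chr1:13137839-13137938: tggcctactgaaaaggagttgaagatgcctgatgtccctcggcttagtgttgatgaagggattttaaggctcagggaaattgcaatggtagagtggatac
Lin28a, chr4:133988486-133988585: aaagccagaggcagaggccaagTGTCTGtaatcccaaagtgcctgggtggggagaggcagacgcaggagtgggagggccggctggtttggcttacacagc
Esrrb, intron 1, IWR-1 peak, chr12:86446842-86446890: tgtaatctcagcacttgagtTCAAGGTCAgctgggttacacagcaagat

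With DMSO, common sites lay near Pou5f1, Nanog, Esrrb, Zfp42 and Utf1, with 1 each, and near Sox2, with 2. Klf2, Klf4, Prdm14 and Lin28a had none within 20 kb. Thus 6 of the 10 genes had a common site (60%, 95% exact binomial interval 26.2 to 87.8), beside 35.1% of the 21938 protein-coding genes. A DMSO peak of either caller lay near 9 of the 10 genes (90%, 55.5 to 99.7), beside 64.3% of all coding genes, and Klf4 was the gene without one. An IWR-1 QESEQ peak lay near 7 of the 10 (70%, 34.8 to 93.3), beside 47.2%, and a peak of the second MACS list near 1 of the 10 (10%, 0.253 to 44.5), beside 26.8%. All of these intervals take in the share of all coding genes, and they cover counting error over genes only.

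Long genes offer more room for a peak, so the peaks were also counted per length. The windows of the 10 genes covered 0.625 Mb, of which the 160512-bp body of Esrrb is the longest single gene. They held 11.2 common sites per Mb (95% exact Poisson interval 4.50 to 23.1), against 5.04 per Mb in the windows of all coding genes. DMSO MACS peaks stood at 19.2 per Mb (9.92 to 33.5) against 7.23, DMSO QESEQ peaks at 25.6 (14.6 to 41.6) against 12.8 and IWR-1 QESEQ peaks at 24.0 (13.4 to 39.6) against 8.07. The peak of the second MACS list gave 1.6 per Mb (0.0405 to 8.92) against 3.52. The pluripotency windows were therefore the denser ones in the DMSO lists and the IWR-1 QESEQ list, with the interval for common sites still reaching below the rate of all genes. The DMSO lists share sites. Of the 15 IWR-1 QESEQ peaks, 8 lay outside both DMSO lists and the rest overlapped DMSO peaks. The rates of the lists are therefore not separate results. Gene bodies and flanks were counted together, and the 10 genes were chosen with earlier results of these data known.

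**Figure D1:**
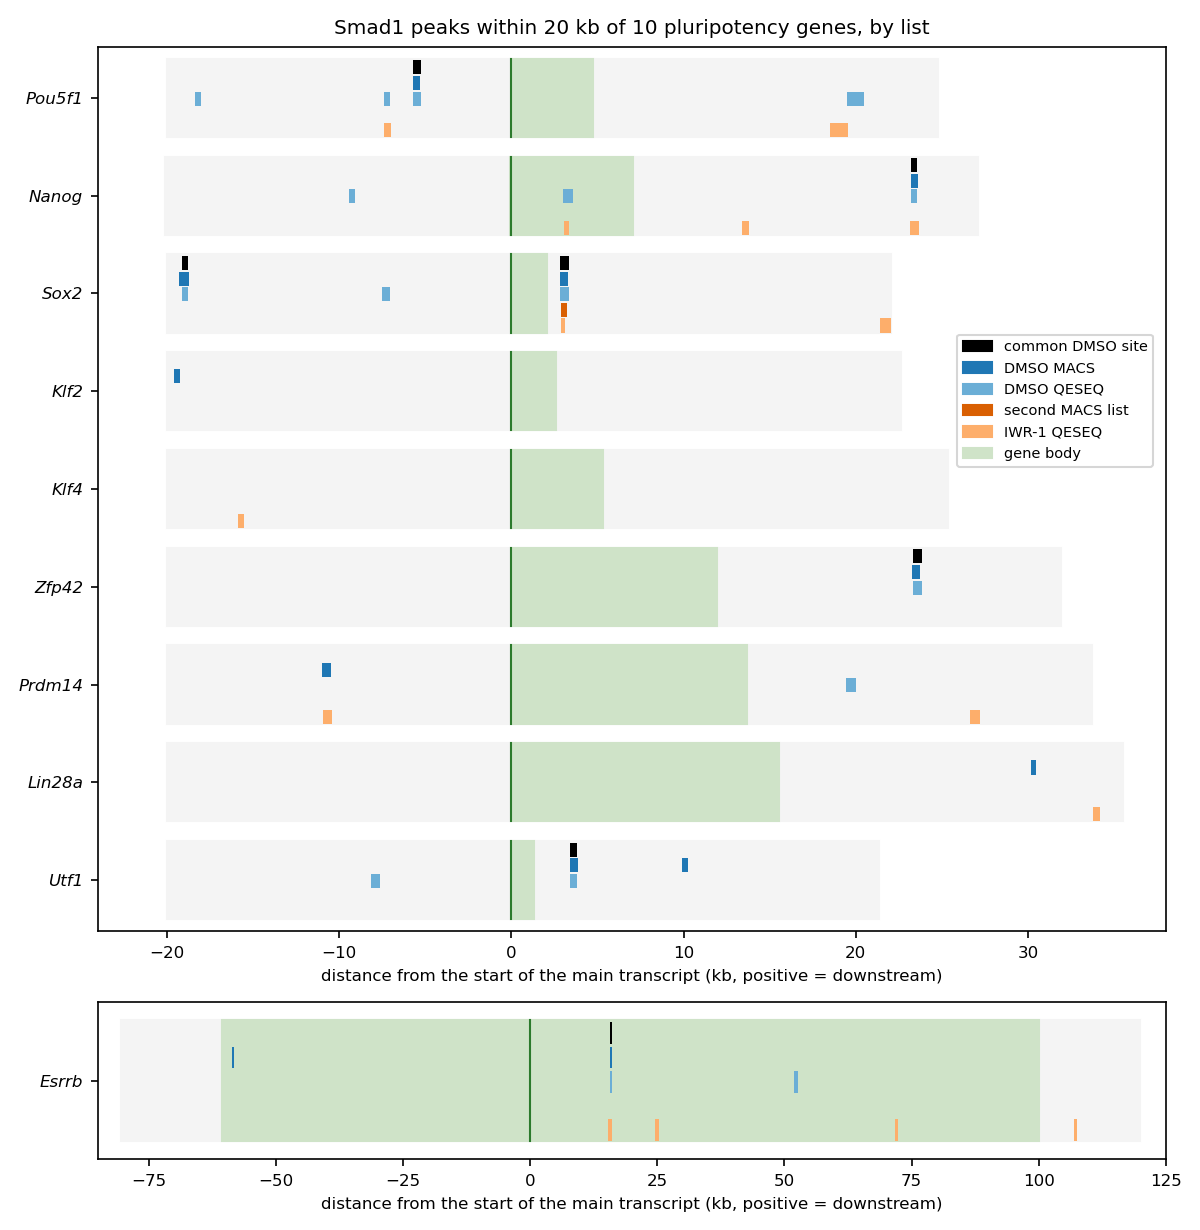
Peaks of the 5 lists around the 10 pluripotency genes, drawn by distance in kb from the start of the main transcript, positive in the direction of transcription; green marks the gene body, grey the 20 kb to either side, and Esrrb has its own axis. No peak is centred within 1 kb of a start, and all 5 lists stack up only at the downstream Sox2 site.

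The peaks lay away from the start sites. Of the 29 regions, 0 were centred within 1 kb of the start of a member's main transcript. Near all coding genes this placement was rare as well, with a common site centred within 1 kb of the start for 2.40% and a peak of any list for 5.93%. The 3 regions centred within 5 kb of a start belonged to Sox2, Nanog and Utf1. Gene bodies were touched by 6 regions, in Esrrb and Nanog, while 10 lay upstream and 13 downstream. In 11 regions the peak overlapped an annotated gene other than the member, and for 6 the nearest coding start was that of another gene. Position alone does not say which gene such a peak belongs to.

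Pou5f1, which encodes Oct4, had 4 regions. Its common site (chr17:35500317-35500751) lay 5267 bp upstream of the gene (chr17:35506018-35510772, plus strand), between genes. MACS gave it a score of 71.9, which placed it above 61.5% of all common sites, and neither IWR-1 list had a peak over it. The next region upstream (chr17:35498614-35499052, 6966 bp from the gene) was called by QESEQ in both treatments and by MACS in neither. Another region with QESEQ calls of both treatments (chr17:35524490-35526468) lay 13718 bp downstream, over Cchcr1 and nearest to the start of Psors1c2. Its IWR-1 peak (chr17:35524490-35525539) and DMSO peak (chr17:35525486-35526468) overlapped only at their ends. A DMSO QESEQ peak (chr17:35487641-35488020) lay 17998 bp upstream, nearest to H2-Q10. Thus the site that both callers reported with DMSO was without a call with IWR-1, whereas a neighbour that 1 caller reported was called in both.

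Nanog, the homeobox factor of the core network, also had 4 regions. Its common site (chr6:122730742-122731106) lay 16109 bp downstream of the gene (chr6:122707489-122714633, plus strand), in intron 9 of Slc2a3, a glucose transporter gene whose start is the nearest coding start. Its score of 56.2 stood above only 20.6% of common sites, and an IWR-1 QESEQ peak (chr6:122730723-122731217) covered all 365 bp of it. Inside Nanog, QESEQ called intron 1 in both treatments, at chr6:122710569-122711164 with DMSO and chr6:122710609-122710920 with IWR-1. Repeats took up 75.8% of that region. The other calls were a DMSO QESEQ peak 9008 bp upstream, over Gm10224, and an IWR-1 QESEQ peak 6314 bp downstream (chr6:122720947-122721387) that lay wholly in repeats. MACS therefore reported Nanog only at the Slc2a3 intron.

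Sox2, the HMG-box partner of Oct4, had both the highest and the lowest score among the common sites of the 10 genes. The upstream site (chr3:34631296-34631630), 18775 bp from the gene (chr3:34650405-34652461, plus strand), scored 91.1, above 84.8% of common sites, and had no call with IWR-1. The downstream site (chr3:34653239-34653735), 778 bp past the gene's end, scored 52.7, above 9.34%. It was called with IWR-1 by QESEQ (chr3:34653289-34653505), over 43.7% of the site, and in the second MACS list (chr3:34653289-34653637), over 70.2% of it. Both sites overlap Sox2ot, the long noncoding RNA gene in which Sox2 lies, and the downstream one also Gm27611. A DMSO QESEQ peak 7044 bp upstream and an IWR-1 QESEQ peak 19333 bp downstream completed the gene's 4 regions, both within Sox2ot.

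The downstream Sox2 site ranked low in the DMSO MACS list, above 11.1% of its peaks. In the second MACS list its score of 69.8 stood above 64.2% of the peaks there. The lists differ in length and library and the site was picked for its calls, so the ranks are set side by side and no change is read from them.

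Of the naive-network genes, Esrrb, an orphan nuclear receptor, had the most regions, 6. Its common site (chr12:86437377-86437778) lay in intron 1, 15933 bp past the main start, with a score of 87.8, above 82.2% of common sites. An IWR-1 QESEQ peak (chr12:86436980-86437691) covered 315 bp of it, or 78.4%, and extended past its upstream edge. Beside it there were 3 IWR-1 QESEQ peaks without a DMSO partner, in intron 1 (chr12:86446280-86446974), in intron 3 (chr12:86493450-86493958) and 6852 bp downstream of the gene (chr12:86528480-86529105). DMSO alone gave a MACS peak of score 55.2 near the distal start of the gene (chr12:86363080-86363441) and a QESEQ peak in intron 2 (chr12:86473607-86474208). Esrrb therefore had as many regions called only with IWR-1, all by QESEQ alone, as all regions it had with DMSO. Over the whole IWR-1 QESEQ list, 52.9% of peaks lay outside both DMSO lists, and the count at Esrrb was not tested against that share.

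Zfp42 (Rex1), a zinc-finger gene used as a marker of naive ES cells, had a single region, the common site at chr8:43283120-43283649, 11414 bp downstream of the gene. The score was 67.0, above 51% of common sites, and the nearest IWR-1 QESEQ peak was 27499 bp from the gene. Klf2 and Klf4, Krüppel-like factors, had 1 peak each. That of Klf2 was a DMSO MACS peak (chr8:72299464-72299808, score 53.0), 19225 bp upstream, nearest to Gm10282 and 83.5% repeats. That of Klf4 was an IWR-1 QESEQ peak (chr4:55547996-55548359), 15530 bp upstream. Prdm14, a PR-domain regulator of the naive state, had 3 regions. A DMSO MACS peak of score 65.9 (chr1:13137630-13138146) and an IWR-1 QESEQ peak (chr1:13137596-13138106) overlapped 10467 bp upstream of it. On the other side of the gene lay a DMSO QESEQ peak (chr1:13107143-13107729) and an IWR-1 QESEQ peak (chr1:13099931-13100518), which did not overlap. Only Prdm14 among the 4 genes without a common site thus had a region called in both treatments.

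Lin28a had a DMSO MACS peak of score 55.0 (chr4:133988388-133988682) and an IWR-1 QESEQ peak (chr4:133984695-133985071), at 14648 and 18259 bp past its end. Both lay in intron 6 of Dhdds, whose start is the nearest coding start. Utf1 had its common site 2055 bp downstream (chr7:139947167-139947626), with a score of 67.9, above 53.1% of common sites. A stronger MACS peak at Utf1, with a score of 85.2 (chr7:139953693-139954040), lay farther downstream over Gm16201 and was not called by QESEQ, and a DMSO QESEQ peak lay 7599 bp upstream in Kndc1. No IWR-1 peak lay within 20 kb of Utf1, and the nearest QESEQ peak was at 45244 bp.

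**Figure D2:**
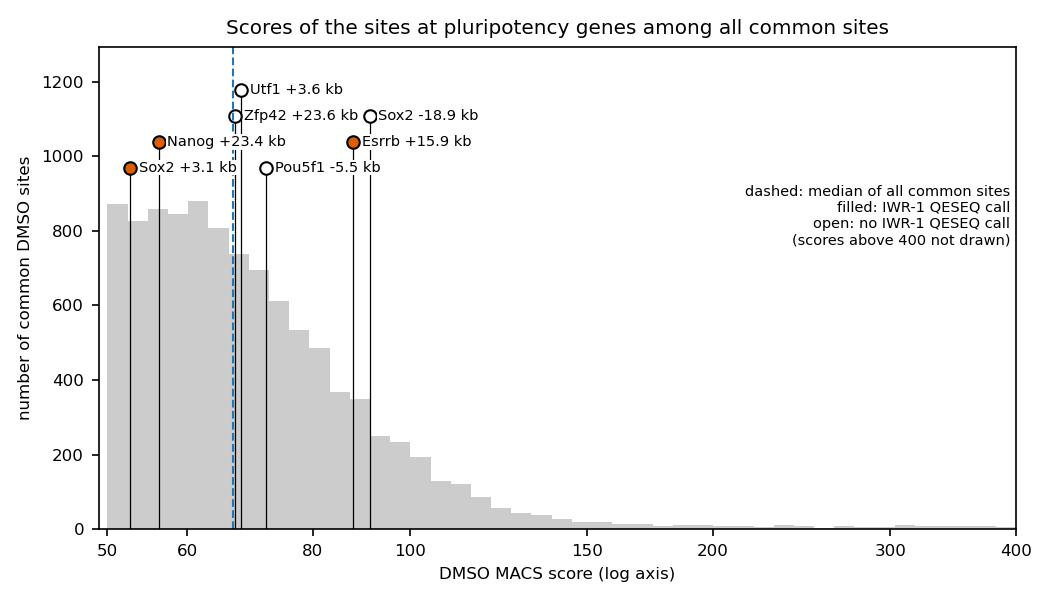
DMSO MACS scores of all 10466 common sites as a histogram (log axis in score, vertical axis in number of sites), with the 7 sites at pluripotency genes as points labelled by the distance of their centre from the start of the main transcript. The 7 sites run from 52.7 to 91.1 around the median of 66.6 (dashed), and the filled points, called with IWR-1 by QESEQ, include both sites below it.

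The 7 common sites were of ordinary strength. Their scores had a median of 67.9, beside 66.6 for all common sites (quartiles 57.6 and 80.7, highest 2082), and 5 of the 7 lay above that median. Widths ran from 335 to 530 bp, beside a median of 423 bp for all common sites. Among MACS peaks, 7 of the 12 near the 10 genes overlapped a common site (58.3%), beside 65.7% of the whole DMSO MACS list. Among DMSO QESEQ peaks, 7 of the 16 were common sites (43.8%), beside 40.1%. Both shares lay within 10 percentage points of those of the whole lists.

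With IWR-1, QESEQ called 3 of the 7 common sites, those of Nanog, Esrrb and the downstream site of Sox2. The share of 42.9% (95% exact binomial interval 9.90 to 81.6) stood beside 37.0% of all common sites. The second MACS list had a peak over 1 of the 7 (14.3%, 0.361 to 57.9), beside 25.8%, and both lists together over the same 1 site, at Sox2, beside 18.4% of all common sites. Pou5f1, Zfp42, Utf1 and the upstream Sox2 site were without a call in either list. A missing call says only that the caller's threshold was not met in 1 library.

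The sites with an IWR-1 QESEQ call included low and high scores, but not the highest of the 7. QESEQ called both of the 2 sites under the median score, Nanog and downstream Sox2, and 1 of the 5 above it, Esrrb, whose score was exceeded among the 7 only by that of the upstream Sox2 site. Over all common sites the order was the other way round, with 30.0% of those at or under the median and 44.1% of those above it called with IWR-1. Zfp42 (67.0) and Utf1 (67.9), both without a call, stood just above the median of 66.6. The 7 sites are too few for a comparison of these shares, and their counts are given as a description.

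**Figure D3:**
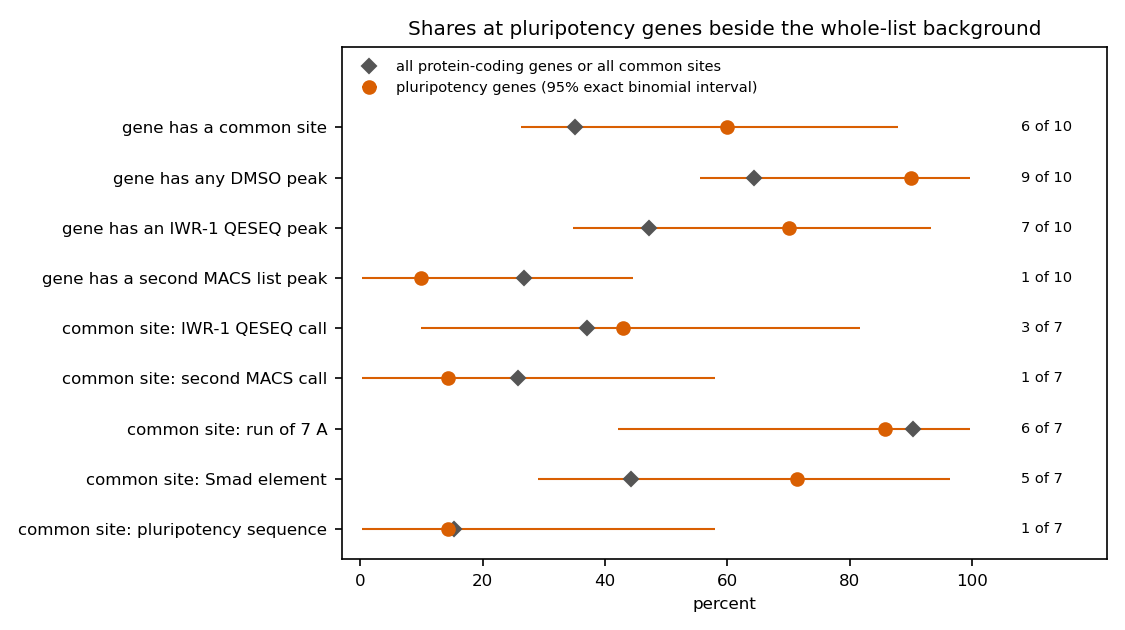
Percent of the pluripotency genes or of their 7 common sites that met each description (circles, with 95% exact binomial intervals), beside the percent of all coding genes or of all common sites (diamonds); the counts stand at the right. Every interval takes in its diamond.

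QESEQ peaks with IWR-1 outside both DMSO lists made up 8 of the 15 near the 10 genes (53.3%, 26.6 to 78.7), beside 52.9% of the whole list. They lay near Esrrb (3), Nanog, Sox2, Klf4, Prdm14 and Lin28a (1 each). DMSO peaks that only 1 caller had reported made up 14 regions, 9 from QESEQ and 5 from MACS. Of these, 4 were overlapped by an IWR-1 QESEQ peak (28.6%, 8.39 to 58.1), beside 19.2% of such peaks in the whole lists, and they belonged to Pou5f1 with 2, Nanog and Prdm14. At the downstream region of Pou5f1 the peaks overlapped only at their ends. In all, 14 regions were called only with DMSO, 7 with both treatments and 8 only with IWR-1. Klf2, Zfp42 and Utf1 had peaks with DMSO only and Klf4 with IWR-1 only. Neither split was made over all regions or all coding genes, so these counts only describe the 10 genes.

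Sequence elements were counted over whole sites, on both strands. The Smad sequences searched were GGCGCC and the related sequence GGAGCC, the palindrome GTCTAGAC, and the shorter element CAGACA, and 5 of the 7 common sites held one (71.4%, 29.0 to 96.3), beside 44.2% of all common sites and 47.0% of windows of the same length 2 kb away. All 5 held CAGACA, which is present in 32% of all common sites, 35% of those windows and 3 of the 14 windows beside the 7 sites. The matches lay 144 bp to the right of the site's centre at Pou5f1, 89 and 136 bp to the right at Esrrb and at -237, -90 and -41 bp at Sox2, Zfp42 and Utf1. Neither the Nanog site nor the upstream Sox2 site held a Smad sequence. The downstream Sox2 site alone held GGAGCC as well (17.4% of all common sites), while GGCGCC (2.66%) and GTCTAGAC (0.411%) were in none.

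Sequences of the pluripotency factors themselves were also searched. The set searched was the octamer ATTTGCAT bound by Oct4, the SOX sequence AACAATG, the Esrrb sequence TCAAGGTCA and the KLF sequences CCACACCC and GGGCGGGG. One of the 7 common sites held any of them (14.3%, 0.361 to 57.9), beside 15.3% of all common sites and 16.8% of the windows 2 kb away. It was the Nanog site, whose AACAATG stands just past the end of a run of 24 A in the sequence printed above. The octamer was in 0 of the 7 sites and 0 of the 29 regions, and in 2.35% of all common sites. Among the 29 regions 6 held a sequence of the set, near Esrrb, Pou5f1, Klf4, Lin28a and Nanog, and no share over all merged regions was computed. Among the 15 IWR-1 QESEQ peaks the count was 4, beside 16.2% of that list, with AACAATG upstream of Klf4 and TCAAGGTCA in the intron 1 peak of Esrrb, a sequence held by 1.56% of the list.

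Of the TCF/LEF sequences through which Wnt signals work, CTTTGAT was in 0 and CTTTGTT in 1 of the 7 sites, that of Zfp42, beside 7.47% and 11.9% of all common sites. When read on the other strand, CTTTGTT gives the letters AACAAAG, which SOX factors can also bind. The GATA sequence AGATAA was in 2 sites, those of Pou5f1 and Zfp42 (21.1% of all), and the AP-1 sequence TGACTCA in 1, that of Pou5f1 (6.68%). None of these shares in all common sites was above that in the windows 2 kb away, where CTTTGAT stood at 8.01%, CTTTGTT at 12.9%, AGATAA at 24.8% and TGACTCA at 7.45%. Among the 15 IWR-1 QESEQ peaks, 3 held a TCF/LEF sequence, near Esrrb and Sox2, beside 19.4% of that list. A match is a description of letters and not a bound site.

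**Figure D4:**
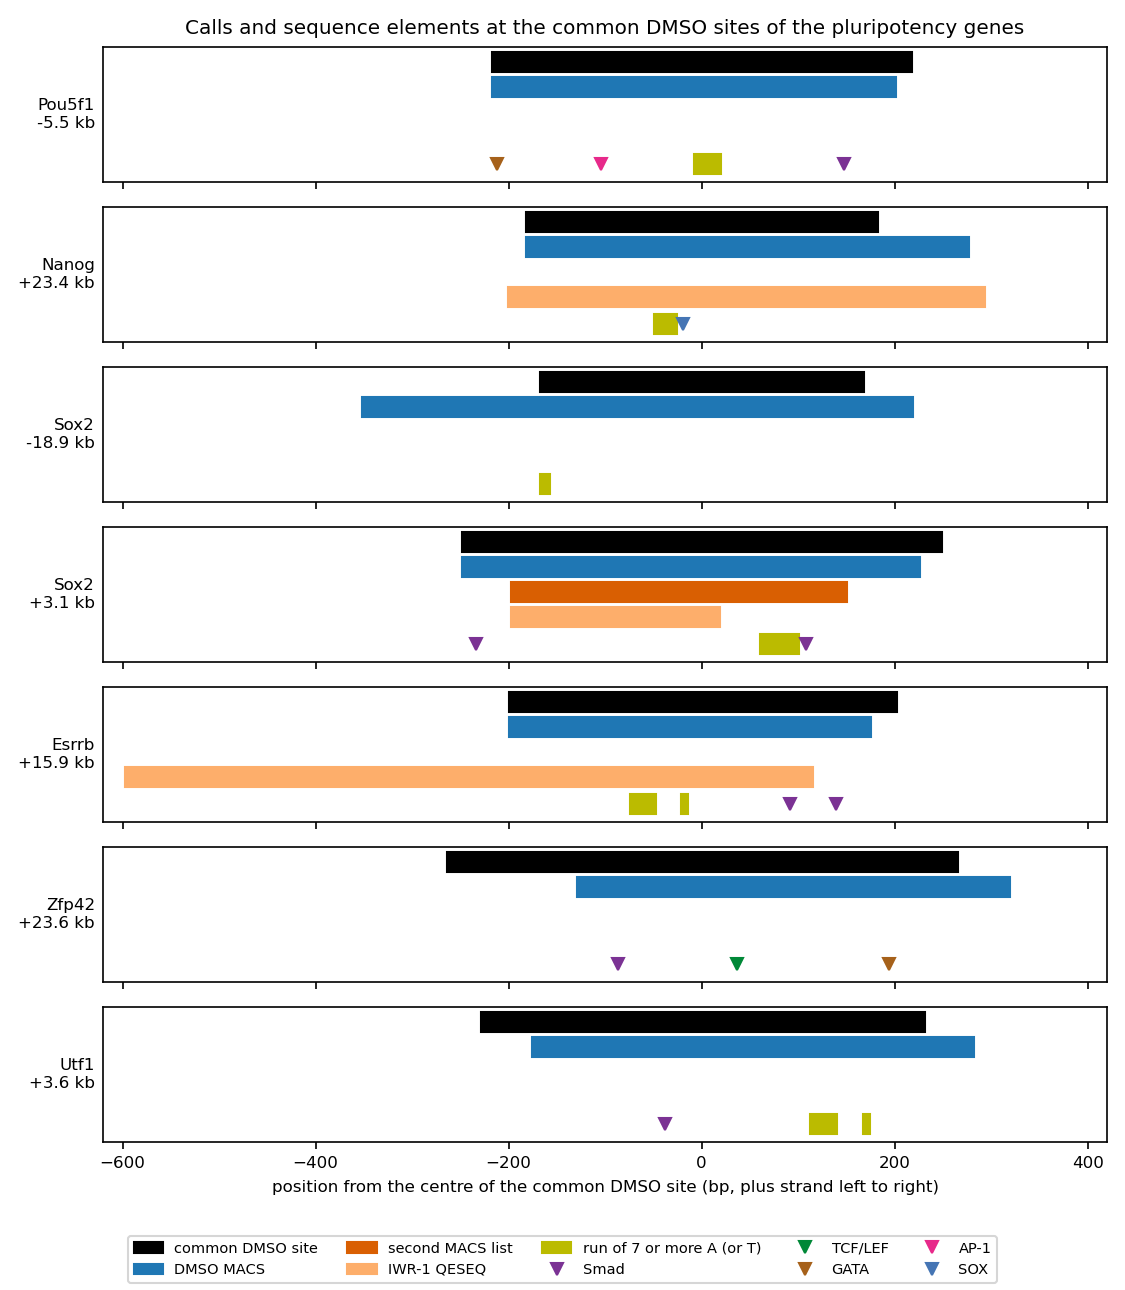
The 7 common sites with the peaks of each list that overlap them and the sequence matches inside, by position in bp from the centre of the common site, left to right on the plus strand; row labels give the gene and the distance of the site's centre from the start of the main transcript. At the downstream Sox2 site the IWR-1 QESEQ peak ends before the run of T, and at Nanog the SOX match lies next to the run of A.

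Runs of A or T were the most frequent feature. A run of at least 7 was in 6 of the 7 sites (85.7%, 42.1 to 99.6), beside 90.3% of all common sites and 29.8% of windows 2 kb away, and in 7 of the 14 windows beside the 7 sites. The longest runs were 28 T at Pou5f1, 24 A at Nanog, 40 T at the downstream Sox2 site, 27 A at Esrrb, 28 T at Utf1 and 10 A at the edge of the upstream Sox2 site, while the longest at Zfp42 was 6. The 10 A at the upstream Sox2 site begin at the first base of the site, and the wider DMSO MACS peak there held a run of 24. The median over all common sites was 25.0 (quartiles 19.0 and 30.0). Within the central 200 bp the run remained at 4 of the 7, Pou5f1, Nanog, downstream Sox2 and Esrrb. The part of the runs in the calls was not tested. Of the 29 regions 25 held a run of 7. The 4 that did not were the Zfp42 site, the Klf4 peak, the DMSO QESEQ peak downstream of Prdm14 and the Esrrb intron 1 peak with TCAAGGTCA. No share over all merged regions was computed. By list, a run was in 11 of 12 DMSO MACS peaks (89.5% of the whole list) and 14 of 16 DMSO QESEQ peaks (79.8%). It was in 11 of 15 IWR-1 QESEQ peaks (69.9%) and in the 1 peak of the second MACS list (77.2%).

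At downstream Sox2 the IWR-1 peaks covered different parts of the site. Its run of 40 T (chr3:34653548-34653587) lay outside the IWR-1 QESEQ peak and inside the peak of the second MACS list. Its Smad match GGAGCC (chr3:34653592-34653597) was placed like the run, outside the QESEQ peak and inside that of the second MACS list, and CAGACA (chr3:34653250-34653255) lay outside both. The stretch shared by all lists had a GC content of 47.5%. The GC content of the 7 sites ran from 41.4 to 46.1%, beside a median of 41.5% over all common sites (quartiles 37.5 and 45.2), and repeats covered from 20.4 to 61.6% of them, beside a median of 38.2%.

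The 20 kb limit set what was counted at some genes. Just inside it were the IWR-1 QESEQ peak 19333 bp from Sox2 and the DMSO MACS peak 19225 bp from Klf2. Just outside it, a common site lay 21138 bp downstream of Pou5f1, over which a MACS peak scored 74.1 and an IWR-1 QESEQ peak also lay, and another common site lay 23184 bp upstream of Klf4, with a MACS score of 57.3. The next common sites lay at 25314 bp for Utf1, 41153 bp for Klf2, 72554 bp for Lin28a and 84537 bp for Prdm14.

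Other genes of the pluripotent state were counted in the same way, from lists chosen with earlier results known. Of 20 further genes of the naive network, 8 had a common site within 20 kb, beside 35.1% of coding genes, and 13 had a DMSO peak, beside 64.3%. They held 10 common sites, 3 of them with an IWR-1 QESEQ call, beside 37.0% of all common sites, and 1 with a call in the second MACS list, beside 25.8%. The highest scores were those near L1td1, an RNA-binding protein gene of ES cells (121, 17.2 kb past its start, called by QESEQ), Tdh, the threonine dehydrogenase gene (79.5, 18.6 kb upstream, called in both IWR-1 lists), and Zfp281, a zinc-finger gene (79.0, 17.1 kb past its start, called by QESEQ). Of 10 genes of the formative or primed state, 2 had a common site, Foxd3 and Etv5, with scores of 79.4 and 57.1 and 0 calls with IWR-1, and 7 had a DMSO peak, beside 64.3% of coding genes. Of 7 genes of LIF signalling, 2 had one, in intron 5 of the kinase gene Jak1 (score 93.0, no call with IWR-1) and in intron 4 of Pim1, a target of the pathway (54.5, called by QESEQ), while all 7 had a DMSO peak, beside the same 64.3%. Peaks of the second MACS list lay near 7 of the 20 naive-network genes, 3 of the 10 formative or primed genes and 4 of the 7 LIF genes, beside 26.8% of all coding genes. None of these counts was tested against those of the 10 regulators.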

How the data were processed

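Smad1 ChIP–seq and input libraries (1 of each per treatment) came from EBs treated for 24 h, with DMSO or with IWR-1 at 10 µM, and collected on day 4. The authors aligned reads to mm10, removed duplicates and called peaks with MACS (p-value cutoff 1e-05, tag size 51, bandwidth 300, model fold 32) and QESEQ (p-value cutoff 0.05, settings 100 and 15). The submitters' processing notes name CASAVA 1.8, Bowtie2 2.1.0 and MACS 1.0.1. The deposited MACS lists hold positions and a score per peak, at least 50.0, and the deposited QESEQ and common lists hold positions only. Depth per peak is unknown, so precision is given only as counting intervals.

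Positions were read as counted from 0 in all lists and are given counted from 1. Peaks within 20 kb (gap of at most 20000 bp) of a GENCODE M21 gene body were taken, overlap was counted from 1 bp, and a site took the highest DMSO MACS score over it. The main transcript was the principal coding one. Motifs were matched exactly on both strands of GRCm38, over whole sites and in windows of equal length 2 kb to either side. Genes and sequences named were all peaks of the 10 members, and, of the other lists, the 3 highest-scoring common sites each. The members, gene lists and sequences searched were chosen with earlier results of these data known. Shares carry 95% exact binomial (Clopper-Pearson) intervals and rates exact Poisson intervals, which cover counting error only. With 1 library per group no test was made. Alternatives covered the window, the list, a score of at least 70, the overlap rule and the central 200 bp. Peak overlap and motif matching were checked on simulated data, and 10000 of 10000 planted cases were recovered in each. Python 3.11.15, numpy 2.4.6, scipy 1.17.1 and matplotlib 3.10.9 were used.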

Additional observations from a re-analysis of the deposited data

How the results depend on the processing

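The 46 alternatives left 23 counts within 1.5 times of the reported ones. Raw counts were compared, although the number of sites differed between settings. A common site lay near 4 of the 10 genes within 10 kb of the body, and near 4 within 20 kb of the main start. Within 50 kb of the body the count was 8. The 35.1% of all coding genes holds for 20 kb from the body only. Within 10 kb and 50 kb of the genes there were 30 and 91 peaks in place of 51. At 50 kb, 13 common sites gave 6 with an IWR-1 QESEQ call, 2 with a call in the second MACS list, 12 with a run of 7 A and 2 with a pluripotency factor sequence. At 10 kb, and at 20 kb from the start of the main transcript, 0 sites held such a sequence. DMSO MACS peaks in place of common sites gave 11 with a run, 8 with a Smad sequence and 2 with a pluripotency factor sequence, of 12. DMSO QESEQ peaks gave 14, 8 and 2 of 16, and 6 with an IWR-1 QESEQ call. These lists and windows hold more or fewer sites by construction. A score of at least 70 left 3 genes, with 3 sites, of which 1 had an IWR-1 QESEQ call, 0 a call in the second MACS list, 3 a run, 2 a Smad sequence and 0 a pluripotency factor sequence. A call in both IWR-1 lists was met by 1 site, and 3 sites held a Smad sequence, in place of 5, in their central 200 bp. An overlap of 50% of the smaller peak left 3 sites called by QESEQ and 1 in the second MACS list.

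No paired analysis was possible because each group has 1 library and the lists come from no test, and leaving out a replicate was not possible. Absence of a call is a threshold in 1 library of unknown depth per peak.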
